A study of Homo sapiens with 3 samples.

Results

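The EGFR family receptors and ligands are the genes of a growth factor signalling system at the cell surface. The members were 9 names chosen for their role: the receptors EGFR, ERBB2 and ERBB3, the ligands AREG, EREG, HBEGF, TGFA and NRG1, and the feedback inhibitor ERRFI1. A member was measured where its symbol had a row in the deposited expression table, which was the case for 7 of the 9 names among 14949 genes. TGFA and NRG1 had no row in the table used here and are given no value. RNA sequencing was done on MIAPaCa-2, an established human cell line from a pancreatic cancer. Cells with a control short hairpin and no treatment formed the group sh-CTL, untreated cells with a hairpin against METTL3 formed sh-METTL3 (knockdown, KD), and control hairpin cells given NMS-P937, an inhibitor of the mitotic kinase PLK1, at 80 nM over 24 h formed sh-CTL + PLK1i (PLK1i). METTL3 is the catalytic subunit of the complex that writes N6-methyladenosine on RNA. All 3 groups carried a hairpin vector, and how many clones made up a line was not given in the sources used here. Each group had 1 library, so no difference had a replicate check and no p-value was computed.

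Receptors of this family are kinases that sit in the cell membrane, pair up when a ligand binds and phosphorylate each other. EGFR binds amphiregulin (AREG), epiregulin (EREG), heparin-binding EGF-like growth factor (HBEGF) and TGF-alpha, ERBB3 binds neuregulins and has little kinase activity of its own, and ERBB2 has no known soluble ligand and serves as a partner of the others. The ligands are made as membrane-bound precursors and released by proteases, and ERRFI1, also called MIG6, binds the EGFR kinase and damps it as negative feedback.

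The sh-CTL, sh-METTL3 and PLK1i libraries, called control, KD and PLK1i below, held 37449317, 46944898 and 47727534 reads of listed genes, and values are given in this order. A normalized count is the read count divided by the library's size factor, and changes are differences of log2(normalized count + 1) from the control. Each change is followed by a 95% interval that compares the reads of 2 libraries and covers counting error only. METTL3 checked the labels, with normalized counts of 3939, 1651 and 3888 and a change of -1.25 (-1.34 to -1.17) after KD. Of the markers of an epithelial cell, which is the labelled cell type, KRT8, KRT18 and KRT19 were present and EPCAM and CDH1 had no row, while the mesenchymal markers VIM and ZEB1 were present and CDH2 had no row. The 3 keratins summed to normalized counts of 151510, 182424 and 141582, and VIM had 244755, 185206 and 246423. No marker of acinar, islet or endothelial cells had a row, and PTPRC, CD3E and DCN had none either. Some markers of other cell types had rows in these MIAPaCa-2 libraries and differed between them. These were the fibroblast markers COL3A1 (normalized counts 615, 42.6 and 378) and COL1A1 (39.6, 5.56 and 33.1), and the macrophage marker CD68 (1755, 3243 and 2647). Their part in the changes below was not tested. In bulk RNA, fewer cells of a type and less RNA per cell cannot be told apart.

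None of the 7 members changed as much as 2-fold from the control in either comparison. In sh-METTL3, 2.94% of all listed genes were at least 2-fold lower and 3.42% at least 2-fold higher, and under PLK1i the shares were 1.13% and 1.39%. At 1.5-fold, no member was past the limit after KD (6.7% of all genes lower and 7.76% higher). HBEGF alone was past it under PLK1i, where it was higher, against 3.98% of all genes higher and 4.01% lower. Smaller differences lay beyond counting error for several members, as for many of all listed genes, and intervals are narrower where reads are many. In sh-METTL3, 4 members had an interval below 0 (28.2% of all genes) and 1 an interval above 0 (27.1%). In sh-CTL + PLK1i, 1 member had an interval below 0 (22.8%) and 3 had an interval above 0 (23.1%). The median change of the members was -0.09 after KD and 0.08 under PLK1i, and the median of all genes was 0.00 in both. Both comparisons share the sh-CTL library.

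**Figure D1:**
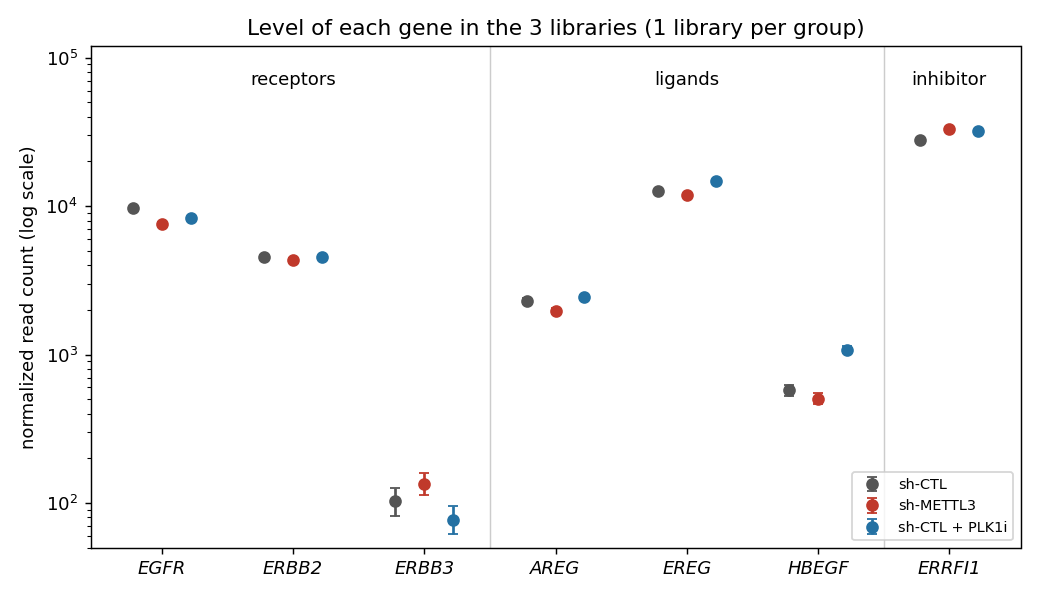
Normalized read count (log axis) of the 7 measured members in sh-CTL (grey), sh-METTL3 (red) and sh-CTL + PLK1i (blue), 1 library each, with bars for the 95% counting interval. HBEGF stood at 1080 in sh-CTL + PLK1i against 573 in sh-CTL, and the other members changed less between these libraries on this axis.

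EGFR (ENSG00000146648, GRCh37 chromosome 7, 55086710 to 55279321, plus strand), the receptor of the measured ligands, had normalized counts of 9653 in the control, 7617 after KD and 8260 under PLK1i, from 8278, 8218 and 8972 reads. It was highest in the control and lowest after KD, and all 3 pairs of libraries differed beyond counting error. The change was -0.34 (-0.39 to -0.30) after KD, a level at 78.9% of sh-CTL. In sh-CTL + PLK1i it was -0.22 (-0.27 to -0.18), a level at 85.6%. ERBB2 (ENSG00000141736, chromosome 17, 37844167 to 37886679, plus strand) had normalized counts of 4508, 4346 and 4519, and no pair of libraries differed beyond counting error. Its changes were -0.05 (-0.11 to 0.01) after KD and 0.00 (-0.06 to 0.06) under PLK1i. MIEN1 and PGAP3 overlap ERBB2 on the opposite strand, and whether reads were counted by strand was not given in the sources used here.

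ERBB3 (ENSG00000065361, chromosome 12, 56470583 to 56497289, plus strand), the neuregulin receptor, was the scarcest member, with 88 reads in the control, 145 after KD and 84 under PLK1i. Normalized counts were 103, 134 and 77.3 in the same order. Neither change from the control was beyond counting error, at 0.39 (-0.0027 to 0.79) after KD and -0.40 (-0.86 to 0.04) under PLK1i. The direct comparison of the other two libraries was, with the PLK1i library lower than the KD library by a log2 difference of -0.79 (-1.20 to -0.40). The ERBB3 value is uncertain because a listed gene without a symbol, ENSG00000257411, overlaps it on the same strand and drew 484, 610 and 532 reads.

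EGFR lies on a chromosome that was lower as a whole after KD. Among the 632 genes of chromosome 7 whose mean normalized count reached 50, 525 (83.1%) were below 0 after KD, and their median change was -0.25. The log2 difference of EGFR from that median was -0.095. The 10 nearest genes of that level, 5 on each side over 7.94 megabases, had a median change of -0.35, and 5 of the 10 were lower than EGFR. The part of this chromosome-wide difference in the EGFR value was not tested. In sh-CTL + PLK1i the same chromosome had a median of 0.01 with 48.1% of its genes below 0. There EGFR stood below all 10 neighbours, whose changes ran from -0.20 to 0.59 around a median of 0.12. Of these the nearest on the lower side, SEC61G, changed by -0.44 after KD and 0.05 under PLK1i, and LANCL2 on the other side by -0.09 and 0.03.

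**Figure D2:**
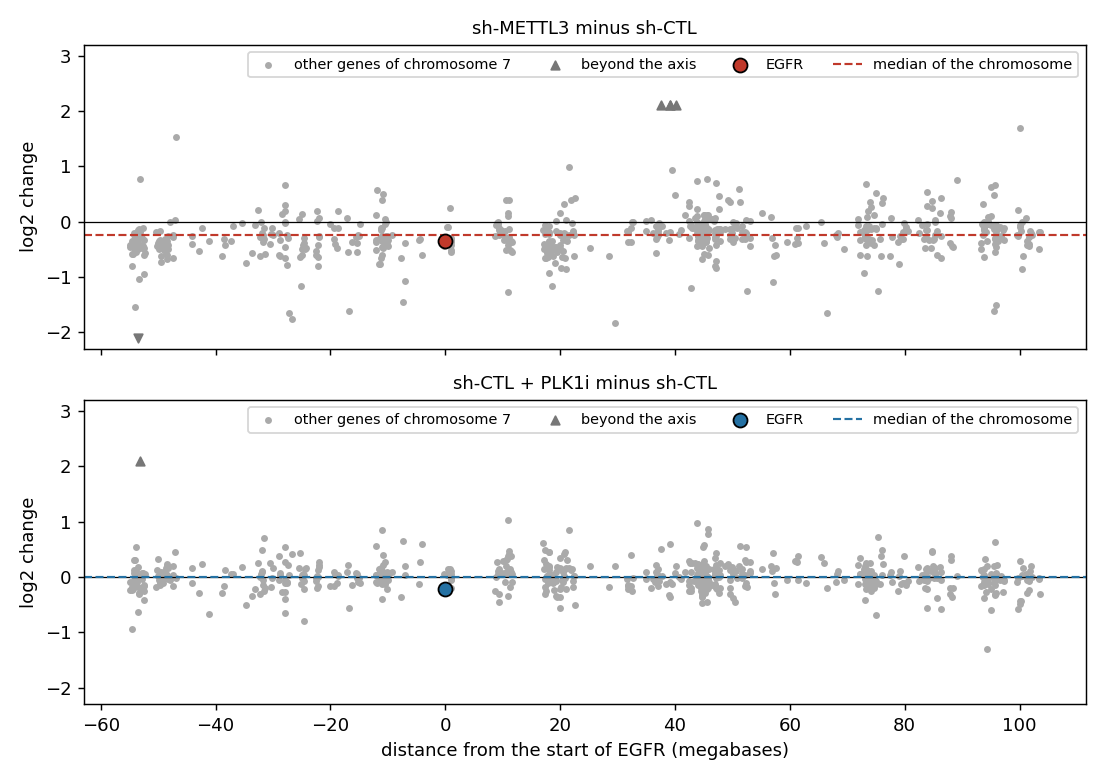
Change in log2(normalized count + 1) from sh-CTL for the 632 genes of chromosome 7 whose mean normalized count reached 50, against distance from the start of EGFR in megabases, in sh-METTL3 (top) and sh-CTL + PLK1i (bottom). The dashed line is the chromosome's median, triangles mark genes beyond the axis, and EGFR (large point) lies near the median of -0.25 at the top and below the median of 0.01 at the bottom.

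The neighbouring ligand genes AREG and EREG lie 56.4 kb apart on chromosome 4. A stretch of each promoter is shown because the windows of these neighbours differ in their match to a cyclic AMP response element (CRE): AREG held the full CRE letters, and EREG held only their 5-base core. The windows are those of RefSeq on GRCh38.p14, from 250 bases before to 50 after the start site, on the plus strand, with the motif in capitals:
AREG, chr4:74445063-74445086, motif at -65 to -58: ccgggcctTGACGTCAtgggctgc
EREG, chr4:74365012-74365032, motif at -125 to -121: tgacttccTGACGgtcctcct
The full motif TGACGTCA, searched on both strands, was in 1.85% of 35116 windows, and its core TGACG, which the full motif contains, in 24.6%. The AP-1 motif TGACTCA, found in 4.95% of windows, and the NF-kB motif, found in 11.3%, were in neither window. The HBEGF window, of the ligand with the largest change under PLK1i, held none of the 4 motifs, nor did that of ERRFI1. Of 2 EGFR windows, the second held the AP-1 letters at 2 places and the first none of the motifs, and the ERBB2 window held none either. A match is a string of letters and says nothing of binding.

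EREG (ENSG00000124882, 75230862 to 75254466 on GRCh37, plus strand) was the most abundant ligand, with normalized counts of 12664 in the control, 11868 after KD and 14734 under PLK1i. The level was highest under PLK1i and lowest after KD, and every pair of libraries differed beyond counting error. The change was -0.09 (-0.13 to -0.06) after KD and 0.22 (0.18 to 0.25) under PLK1i. AREG (ENSG00000109321, 75310853 to 75320722, plus strand) took the same order, with normalized counts of 2307, 1960 and 2436. Its change of -0.23 (-0.32 to -0.15) after KD was beyond counting error, and that of 0.08 (-0.01 to 0.16) under PLK1i was not. Set directly against KD, PLK1i was higher by 0.31 (0.23 to 0.40) for AREG and by 0.31 (0.28 to 0.35) for EREG. The AREG level is uncertain because the GRCh37 annotation holds a near-identical copy, AREGB, at 75480629 to 75490486 on the same chromosome. The longest transcripts of the pair matched at 1233 of 1234 aligned bases, and AREGB had no row.

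HBEGF (ENSG00000113070, chromosome 5, 139712428 to 139726188, minus strand), which binds EGFR and ERBB4, showed the largest change among the members. It had 491 reads in the control, 544 after KD and 1173 under PLK1i, or normalized counts of 573, 504 and 1080. The PLK1i library stood apart from the others, which were close to each other. The change was 0.91 (0.76 to 1.07) under PLK1i, 1.88-fold, and -0.18 (-0.36 to -0.0044) after KD. A change at least as high under PLK1i was seen for 1.66% of all listed genes, and for 25 of the 10782 genes whose mean normalized count reached 200 (0.232%). Set against KD, the PLK1i value was higher by 1.10 (0.95 to 1.25), 2.14-fold, and 3.09% of listed genes differed as much in that direction. HBEGF stood above all 10 of its neighbours of a mean normalized count from 50 under PLK1i, whose median was 0.02 and whose highest change was 0.63. The nearest listed genes with a symbol, PFDN1 and ANKHD1, changed by 0.11 and -0.15.

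**Figure D3:**
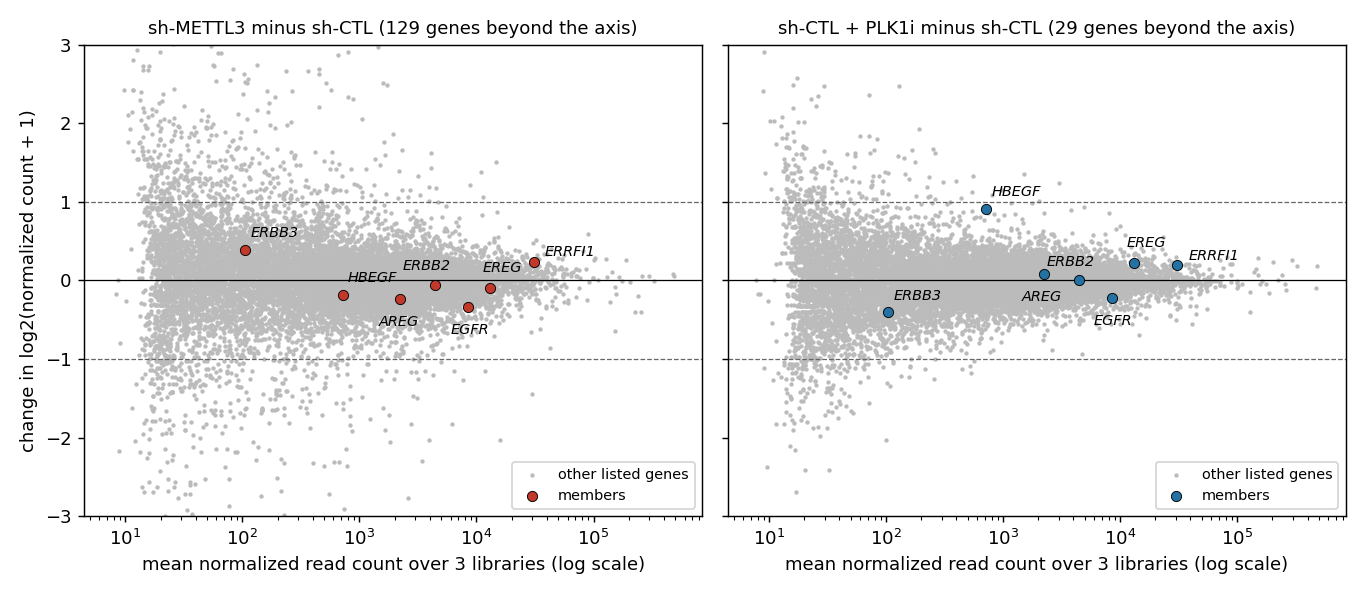
Change from sh-CTL against mean normalized read count (log axis) for all 14949 listed genes (grey) and the 7 members (coloured), in sh-METTL3 (left) and sh-CTL + PLK1i (right), with dashed lines at 2-fold. HBEGF, at 0.91 in sh-CTL + PLK1i, lies near the upper edge of genes of its level, and 129 genes on the left and 29 on the right lie beyond the axis.

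The member ligands AREG, EREG and HBEGF together added up to normalized counts of 15543 in the control, 14333 after KD and 18250 under PLK1i. The sum changed by -0.12 (-0.15 to -0.08) after KD and by 0.23 (0.20 to 0.26) under PLK1i, 1.17-fold. With betacellulin (BTC), the other measured EGFR ligand, the change of the sum was -0.08 (-0.11 to -0.05) after KD and 0.23 (0.20 to 0.26) under PLK1i. EREG made up 81.5%, 82.8% and 80.7% of the sum without BTC in the 3 libraries. HBEGF made up 3.68%, 3.52% and 5.92%, a small part of the ligand reads in each library. For AREG, EREG and HBEGF the level was highest under PLK1i and lowest after KD. BTC was highest after KD and lowest in the control. Under PLK1i the intervals of AREG (-0.01 to 0.16) and BTC (-0.06 to 0.36) included 0. The HBEGF interval after KD ended at -0.0044. Both comparisons use the same sh-CTL library, and the share of all genes with either order is not given here.

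ERRFI1 (ENSG00000116285, chromosome 1, 8064464 to 8086369, minus strand) was the inhibitor among the members and had the highest counts, 27893 in the control, 32869 after KD and 31934 under PLK1i after normalization. Unlike EGFR, it was lowest in the control. It changed by 0.24 (0.21 to 0.26) after KD and 0.20 (0.17 to 0.22) under PLK1i. ERRFI1 was the only member whose interval lay above 0 in both comparisons, and EGFR the only member whose interval lay below 0 in both. Both comparisons use the same sh-CTL library, and the share of all genes on the same side in both is not given here. A listed gene without a symbol, ENSG00000284747, overlaps ERRFI1 on the opposite strand and had 38, 43 and 53 reads. Among listed genes with a symbol, the nearest on either side were PARK7, which changed by 0.19 and -0.07, and SLC45A1, which changed by -0.61 after KD.

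**Figure D4:**
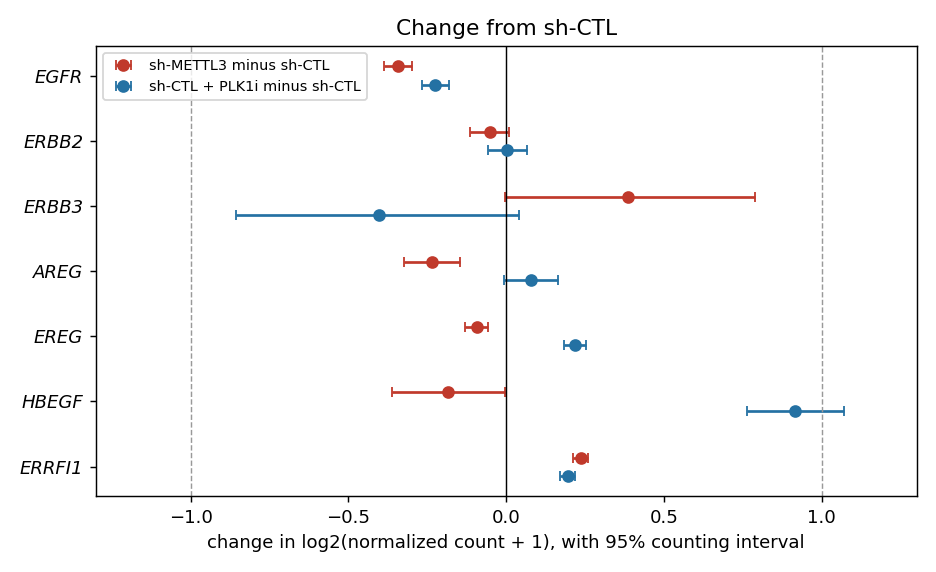
Change in log2(normalized count + 1) from sh-CTL for the 7 members in sh-METTL3 (red) and sh-CTL + PLK1i (blue), with 95% counting intervals and dashed lines at 2-fold. The 3 ligands AREG, EREG and HBEGF lie below 0 in sh-METTL3 and above 0 in sh-CTL + PLK1i, and the AREG interval in sh-CTL + PLK1i includes 0. Both comparisons share the sh-CTL library.

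Per kilobase of exon, the scale on which genes of unlike length can be compared, the order was the same in all 3 libraries. In sh-CTL the level per kilobase was 6674 normalized counts for ERRFI1, 2217 for EREG, 1405 for AREG, 606 for EGFR, 437 for ERBB2, 191 for HBEGF and 8.76 for ERBB3. ERRFI1 thus stood about an order of magnitude above EGFR, and ERBB3 far below every other member. With the longest transcript in place of all exons, EGFR and ERBB2 changed places after KD (769 and 882) and under PLK1i (834 and 917). The letters GGACT, a common context of N6-methyladenosine, occurred 12 times in the longest EGFR transcript, 9 in ERBB3, 5 in ERBB2, 4 in HBEGF and 3 in EREG. AREG and ERRFI1 had none. The density was highest in HBEGF, at 1.70 per kilobase, against a median of 0.923 over 14628 listed genes, and methylation was not measured here.

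Other genes of the pathway were taken from lists of 78 further names, of which 67 had a row. In sh-METTL3, 1 of the 67 was at least 2-fold lower (2.94% of all listed genes) and 3 were at least 2-fold higher (3.42%). Under PLK1i none of the 67 was past 2-fold in either direction (1.13% of all genes lower and 1.39% higher). The median changes of the 67 were 0.03 and 0.04. Of the receptors and ligands, ERBB4, EGF, EPGN, NRG3 and NRG4 had no row. BTC, a ligand of EGFR and ERBB4 that lies 349 kb from AREG on chromosome 4, had normalized counts of 364, 704 and 403. It was 1.93-fold higher after KD, a change of 0.95 (0.76 to 1.15), where AREG, EREG and HBEGF were lower, and it changed by 0.15 (-0.06 to 0.36) under PLK1i. The neuregulin NRG2 stayed within counting error, at -0.07 and 0.05.

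Ligand shedding had 11 of 12 names in the table, with median changes of -0.03 after KD and 0.01 under PLK1i. RHBDF2 (iRhom2), which escorts the protease ADAM17 to the surface, changed by -0.63 and 0.13. FRMD8, which stabilizes it, changed by -0.51 and -0.26. ADAM17 itself, chosen after its values were seen, changed by -0.24 and -0.14, and ADAM19 changed by 1.24 and 0.11. ADAM19, named likewise after its values were seen, was past 2-fold after KD on 16 reads in the control and 49 after KD.

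Among receptor inhibitors and turnover genes, 16 of 18 names had a row, with medians of 0.03 and 0.07. PTPRK, a receptor-type phosphatase reported to act on EGFR, had 173 reads in the control, 2 after KD and 209 under PLK1i. It was almost absent from the sh-METTL3 library, with a change of -6.15 (-9.82 to -4.89), and under PLK1i the change was -0.07. PTPRK lies on chromosome 6, and the changes of its neighbours there were not examined here. LRIG1, which promotes loss of the receptors, and SH3KBP1, an endocytic adaptor of CBL, were chosen after their values were seen. LRIG1 changed by 0.76 after KD and 0.58 under PLK1i, and SH3KBP1 by -0.83 and 0.10.

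Adaptors and direct signalling partners had 25 of 28 names in the table, with medians of 0.07 and 0.00. GAB2, a docking protein for PI3-kinase and SHP2, had 160, 444 and 268 reads and changed by 1.14 (0.88 to 1.41) after KD and 0.40 under PLK1i. GRB7, an adaptor that binds ERBB2, was the other gene past 2-fold after KD, at 1.29 with 21, 66 and 16 reads, and it too was named after its values were seen. All 14 receptor endocytosis names had a row, with medians of -0.04 and 0.06 and none past 1.5-fold. The clathrin adaptor EPS15 changed by -0.39 and -0.10, and STAM, which sorts receptors at endosomes, by -0.34 and 0.13.

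**Figure D5:**
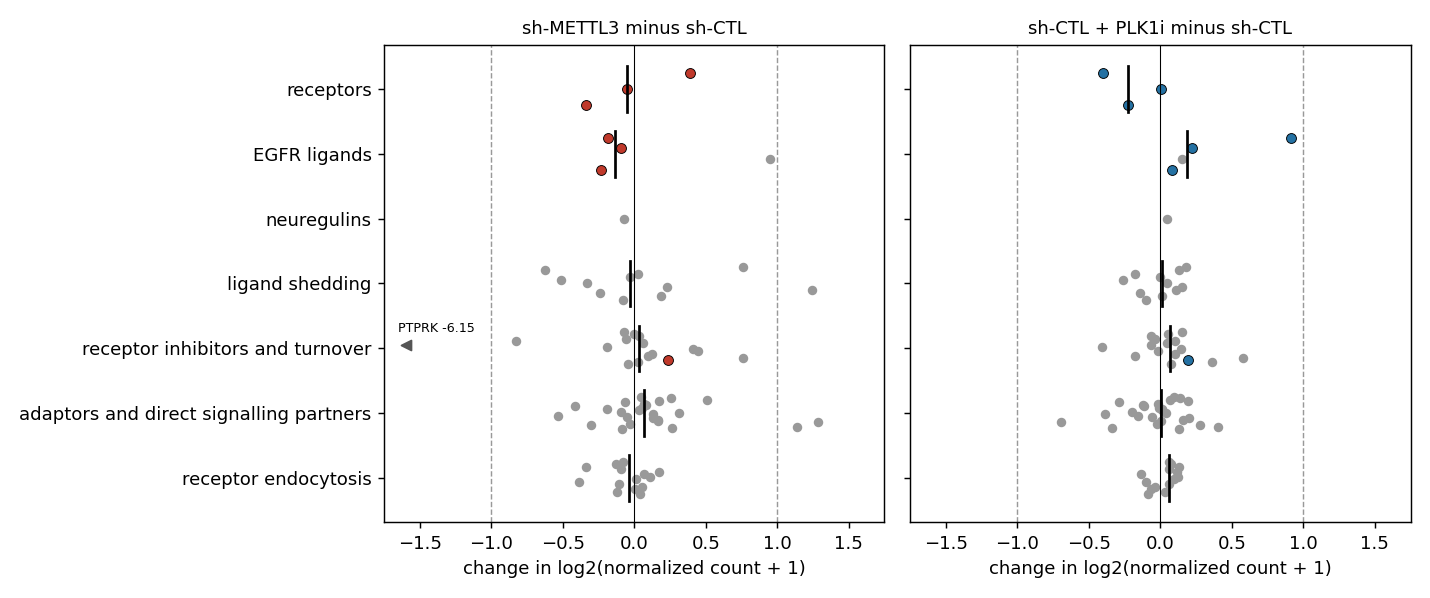
Change from sh-CTL of the 74 measured pathway genes by list, in sh-METTL3 (left) and sh-CTL + PLK1i (right), with members coloured, other genes grey, list medians as black bars and dashed lines at 2-fold. The list medians lay between -0.22 and 0.18, and PTPRK, at -6.15 in sh-METTL3, is drawn as a triangle at the edge.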

How the data were processed

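RNA of MIAPaCa-2 cells was extracted with ISOGEN and made into libraries with the TruSeq stranded mRNA kit, per the labels. The authors deposited log2 values of expression in 1 table. The submitters' processing notes name FastQC 0.11.9, STAR 2.7.10, RSEM 1.3.3 and hg19, and the normalization is not given in the sources used here. Each column was matched to a sample through the abbreviation in its name. The deposited log2 values were undone and the constant 4 was subtracted, which left multiples of 1.17, 0.927 and 0.921 for sh-CTL, sh-METTL3 and PLK1i. Division by these steps gave whole reads within 0.1 for 100% of 10710, 9950 and 9848 values of up to 2000 reads. The highest library of any listed gene reached 0.503 CPM or more.

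Changes were differences of log2(normalized count + 1), which shrinks the changes of scarce genes. Intervals at 95% for a ratio of reads, given their sum, were computed by the exact Clopper-Pearson method. They cover counting error only and leave out variation between cultures, since each group had 1 library. Amplified reads are not independent molecules, so the intervals can be too narrow even for counting error. With 1 library per group a count test was not run. The intervals were tried on simulated libraries drawn with counting error alone, which is the error they assume. That trial could not test variation between cultures or from amplification. The members and lists were chosen with earlier results of these data known. Named were all members, METTL3 and the cell type markers. Of the pathway genes, those past 2-fold with a mean of at least 50 were named, or otherwise the 2 largest changes of a list. Neighbours named as nearest were the nearest listed genes with a symbol. Genes most like a member were to be named only for members past 2-fold from sh-CTL, and there were none. Positions came from GENCODE 44 mapped to GRCh37 (14858 identifiers found), and promoter windows from RefSeq on GRCh38.p14 (7 of 9 members, ERBB3 without one). Alternatives were other scalings, pseudocounts, filters, the 1.5-fold limit, the longest transcript and subtraction of the chromosome's median. Tools were Python 3.11.15, numpy 2.4.6, scipy 1.17.1, pandas 2.3.3, Biopython 1.88 and matplotlib 3.10.9.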

Additional observations from a re-analysis of the deposited data

How the results depend on the processing

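Over 571 recomputed values, 543 stayed within counting error or on the same side of their limit, 28 moved and none reversed by this measure. Many could hardly move. The other scalings shifted the median change of all genes by at most 0.02 in size. Pseudocounts of 0.5 and 4 are small beside the members' counts. The 543 include 54 values recomputed without the filter on the mean, which could not move because that filter left out 0 genes. The 84 recomputed member changes held in 82 cases, and the exceptions came from subtracting the chromosome's median, which took EGFR to -0.10 after KD and EREG to 0.17 under PLK1i. The other scalings (TMM, total count, upper quartile) and pseudocounts of 0.5 and 4 moved no value past a limit. Some values near 0 changed sign under other scalings. With upper-quartile scaling, ERBB2 under PLK1i went from 0.0036 to -0.012, and the adaptor median under PLK1i from 0.0033 to -0.013. With a mean of at least 50, the genes 2-fold higher after KD were 0 for ligand shedding, 1 for adaptors and 1 for all pathway genes other than members. With a mean of at least 200, which leaves no neuregulin and no ERBB3, the receptor median became -0.20 after KD and -0.11 under PLK1i. Under this filter the KD counts were 0 higher for shedding, 0 lower for inhibitors, 1 higher for adaptors, and 0 lower and 1 higher for pathway genes other than members. At 1.5-fold after KD, the counts were 1 higher for EGFR ligands, 1 lower and 2 higher for shedding, 2 lower and 1 higher for inhibitors, and 3 lower and 6 higher for pathway genes other than members. At 1.5-fold under PLK1i, they were 1 higher for members and for EGFR ligands, and 1 lower for adaptors and for pathway genes other than members. Adding BTC to the ligand sum, chosen after seeing the data, took its change to -0.08 after KD. The changed counts follow from the filter or limit itself. No paired analysis was possible because each group had 1 library. Depth limits ERBB3 most, at 84 to 145 reads.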
